A study of Canis lupus familiaris with 30 samples.

Results

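The untyped nodes were compared with the B-Cell nodes before treatment, and the 12 libraries were chosen by their labels alone. They were those taken prior to treatment from 5 dogs whose immunophenotype was given as Unknown and from 7 dogs labelled B-Cell. They made up 12 of the 30 libraries of the study. The question was which lineage the untyped tumours resembled and what else set them apart.

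The study sequenced RNA of lymphoma tumours from 15 dogs before treatment and after 6 weeks of CHOP, which combines cyclophosphamide, doxorubicin, vincristine and prednisone. Enlarged nodes were sampled by fine needle aspiration, so each library mixed tumour cells with the other cells of the node. Immunophenotype came from flow cytometry, and the 5 untyped dogs had missed it through a technical error. A single prednisone injection before enrolment was allowed, and which dogs had one was not given in the sources used here. Each library came from a different dog within a timepoint, so p-values measured the spread between dogs. The labels gave neither breed nor age. The remaining 3 dogs, labelled T-Cell, served as a point of reference for T-cell genes and entered the fit only in 1 alternative.

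B and T lymphocytes are told apart by the receptors they carry and by the factors that hold their identity. PAX5 commits cells to the B lineage and keeps B-cell genes on, while the CD3 chains carry the signal of the T-cell receptor. Most canine lymphomas are of B-cell origin, and a node with a B-cell tumour still holds some T cells, macrophages and stroma. In bulk RNA, fewer cells of a type and less RNA per cell cannot be told apart.

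Expression was read as FPKM, a read density per gene that is scaled by gene length and library depth. Total gene counts ran from 15025412 to 26543591 in the untyped libraries and from 10047845 to 43413353 in the B-Cell libraries. Counts and FPKM ranked genes alike in 7 of the 12 libraries, with a Spearman correlation of 0.850 to 0.909, but not in the other 5, at 0.0783 to 0.0874. Those 5 were the untyped dogs 024 and 035 and the B-Cell dogs 027, 029 and 030. The counts were therefore used for the totals alone, and differences were also computed within the 5 and within the 7 libraries. In T-Cell dog 028, outside the comparison, the correlation was 0.0639. With that dog, the set had as many B-cell, T-cell and untyped dogs as the paper's cluster with shorter progression-free survival. Whether they were the same dogs was not tested. Differences are given as untyped minus B-Cell on the log2(FPKM+1) scale, which understates the change of genes at low FPKM.

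A pair of libraries stood against their labels. The node of dog 029, labelled B-Cell, held 178 FPKM of CD3E, the epsilon chain of the T-cell receptor complex, where the other 6 B-Cell nodes held 1.56 to 27.4. The node of dog 038, labelled T-Cell, held 62.8 FPKM of PAX5 and 14.6 FPKM of CD3E, and so carried the B-cell marker at a level above all 12 compared nodes. PAX5 in dog 029 was at 17.7 FPKM, so both lineages' markers were present in that node. Most list medians and some gene differences are given with and without dog 029. The other differences include that dog.

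All 5 untyped nodes carried the B-cell genes and had low levels of most T-cell genes. PAX5 was at 18.4, 38.5, 25.7, 24.1 and 22.3 FPKM in dogs 024, 025, 026, 031 and 035. The 7 B-Cell nodes ran from 17.7 to 60.2 FPKM with a median of 27.2. All untyped values lay inside that range, while T-Cell dogs 028 and 036 held 1.52 and 0.291 FPKM. The difference in PAX5 was -0.25 ± 0.27 (SE, n = 5 and 7), with an exact two-sided permutation p of 0.405, or 0.559 after Benjamini-Hochberg adjustment over the marker genes tested. CD79A, part of the B-cell receptor, was not analysed here.

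The other B-cell genes also overlapped between the groups. CD22, an inhibitory receptor of B cells, was at 81.0, 84.7, 74.6, 109 and 46.3 FPKM in the untyped nodes, and at 46.1 to 161 in the B-Cell nodes with a median of 79.2. POU2AF1, a transcriptional coactivator of B cells, was at 92.7, 73.6, 48.7, 43.7 and 64.4 FPKM against 9.60 to 80.6 with a median of 53.4. FCRL1, a receptor of the Fc receptor-like family on B cells, was at 5.45 to 11 FPKM against 5.71 to 13.7. The groups overlapped for each of these genes, and dog 029 held the lowest value of CD22, POU2AF1 and FCRL1 among the B-Cell nodes. Differences were -0.08 ± 0.28 for CD22, 0.55 ± 0.43 for POU2AF1, -0.18 ± 0.21 for FCRL1 and 0.11 ± 0.24 for TNFRSF13B, a receptor for survival factors of B cells (SE, n = 5 and 7). None passed limma's test, and adjusted p ran upwards from 0.895. BTK, a kinase of B-cell receptor signalling, was at 138, 187, 106, 101 and 164 FPKM in the untyped nodes and at 8.13 and 3.01 in T-Cell dogs 028 and 036. The lowest of the B-Cell nodes was dog 029, at 41.5 FPKM.

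As one value per node, the level of a gene list was taken as the mean log2(FPKM+1) over its measured members. The B-cell list had 5 measured members of 22 and the T-cell list 17 of 27. The B-cell level was 4.68, 4.82, 4.36, 4.50 and 4.39 in untyped dogs 024, 025, 026, 031 and 035, and 3.65 to 5.13 in the B-Cell nodes with a median of 4.59. T-Cell dogs 028, 036 and 038 were at 1.57, 1.12 and 4.64. The T-cell level was 1.32, 1.50, 1.08, 1.56 and 0.84 in the untyped nodes. It ran from 0.90 to 5.47 in the B-Cell nodes with a median of 1.78, or to 2.83 without dog 029, and was 5.99, 6.07 and 2.29 in the T-Cell nodes. Each untyped node lay inside the B-Cell range for the B-cell list with dog 029 included. Without it the lowest B-Cell value was 4.39, and dog 026 and, by a margin lost in rounding, dog 035 lay below it. For the T-cell list dog 035 lay just below the B-Cell range and the other 4 inside it. T-Cell dogs 028 and 036 lay far from the untyped nodes on both. Dog 038 lay nearer to them. For B-cell receptor signalling genes its level was 6.30, inside the 5.79 to 6.61 of the B-Cell nodes.

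**Figure D1:**
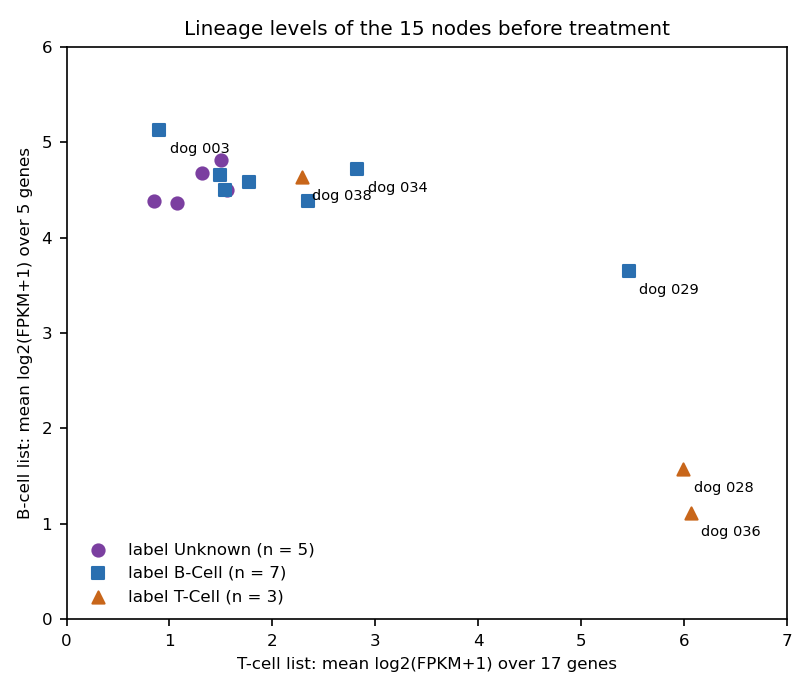
Level of the T-cell list (x axis) against that of the B-cell list (y axis), both as mean log2(FPKM+1), 1 point per node before treatment, with colour and shape by immunophenotype label. The 5 untyped nodes sit between 4.36 and 4.82 on the B-cell axis and at or below 1.56 on the T-cell axis, B-Cell dog 029 lies apart at 5.47 on the T-cell axis, and T-Cell dog 038 lies among the B-Cell nodes.

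Whole profiles were compared as well. Over the 13293 genes tested, Spearman's correlation with the B-Cell libraries had a median of 0.893 to 0.933 across the 5 untyped libraries. With B-Cell dog 029 alone it was 0.780 to 0.824. The same measure with T-Cell dogs 028 and 036 was 0.798 to 0.829 and 0.748 to 0.786, and with dog 038 it was 0.865 to 0.905. The B-Cell libraries other than dog 029 had medians of 0.893 to 0.927 among themselves. The library most alike was a B-Cell one for 4 of the 5 untyped nodes, and dog 026, also untyped, for dog 025. These are descriptions across genes, which are not independent, and all libraries share highly expressed housekeeping genes.

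T-cell genes had negative differences, whose size depended on dog 029. CD3E was at 7.29, 6.27, 2.35, 69.4 and 1.64 FPKM in dogs 024, 025, 026, 031 and 035, and at 1.56 to 178 in the B-Cell nodes with a median of 9.28. The groups overlapped, and untyped dog 031 stood above every B-Cell node but dog 029. The difference was -0.70 ± 1.0 (SE, n = 5 and 7) with an exact two-sided permutation p of 0.559, also 0.559 after adjustment. Without dog 029 it was -0.07, and within the 7 libraries whose counts and FPKM ranked genes alike it was 0.28.

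The high CD3E of dog 031 was not shared by CD5 and ZAP70 in that node. CD5, a surface receptor of T cells, was at 0.397 FPKM there and ZAP70, the kinase that binds the CD3 chains, at 1.68. In T-Cell dogs 028 and 036 the same genes were at 26.2 and 17.8 FPKM for CD5 and at 26.1 and 43.4 for ZAP70. CD3D, the delta chain of the complex, was present in all untyped nodes, at 14.8 to 38.0 FPKM, and at 4.67 in T-Cell dog 038, so its level did not follow the rest of the list.

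LCK, the kinase that starts signalling from the T-cell receptor, was at 3.51, 4.45, 7.39, 4.02 and 2.27 FPKM in the untyped nodes. The B-Cell nodes ran from 4.26 to 86.4 with a median of 10.4, so 3 of 5 untyped nodes lay below the lowest of them. The difference was -1.41 ± 0.55, and -0.96 without dog 029 (limma, unadjusted p of 0.0235, adjusted p of 0.895). CD5 was at 0.585, 1.15, 0.0506, 0.397 and 0.173 FPKM against 0.179 to 36.2 with a median of 2.32. Its difference was -1.42 ± 0.65, and -0.87 without dog 029 (limma, unadjusted p of 0.0475, adjusted p of 0.895). Neither gene passed the test across all genes. CD5 passed the filter on mean FPKM only through the B-Cell nodes.

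The T-cell list as a whole had a negative difference in 17 of 17 measured genes, with a median of -1.21. Over all genes tested the median was -0.05 and 5617 of 13293 differences were positive. At an unadjusted p under 0.05, 2 of the 17 were lower, LCK and CD5, where 2.72% of all genes were. Without dog 029 the median was -0.62 and 16 of 17 differences were negative. The difference in level was -1.83 within the 5 libraries named above and -0.53 within the other 7, and -0.55 within the 5 once dog 029 was left out. The sign was thus kept in both sets, and no member passed an adjusted p of 0.05.

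**Figure D2:**
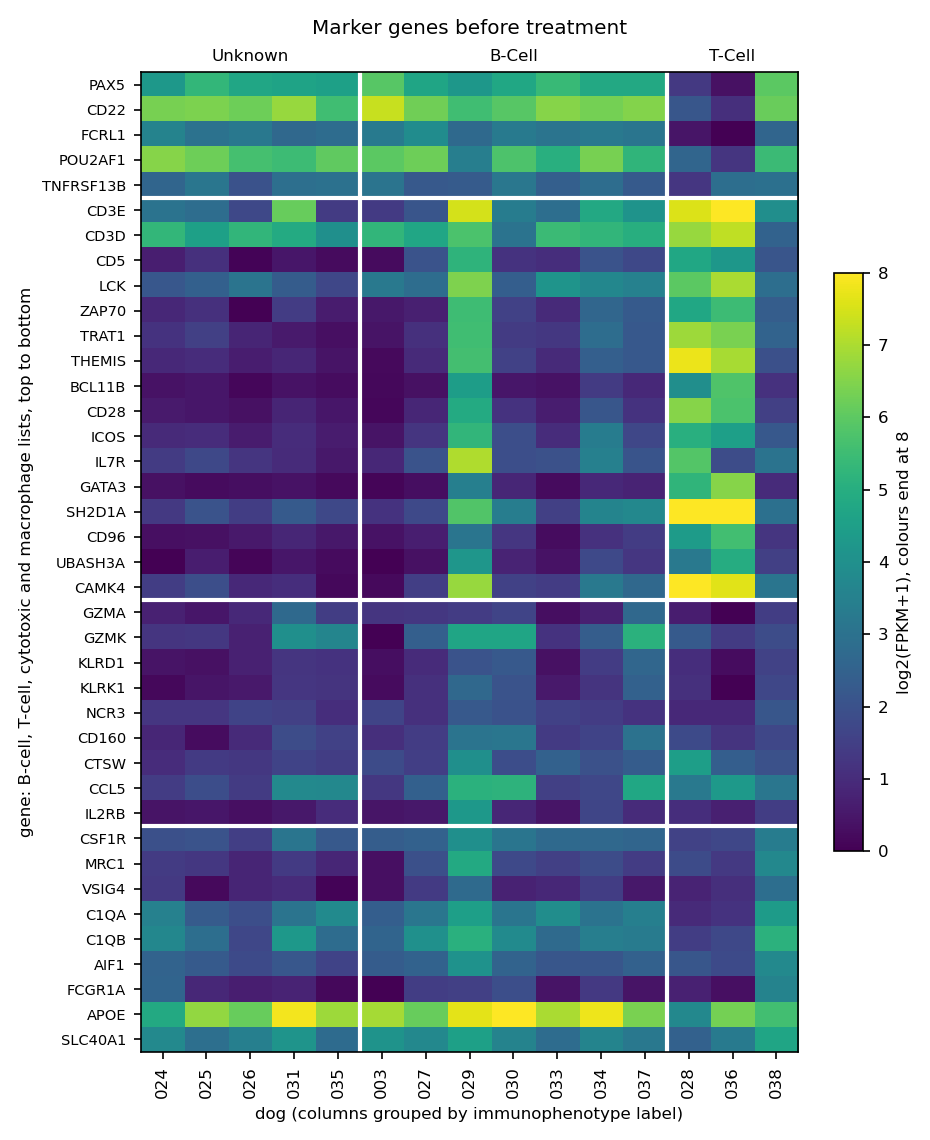
Log2(FPKM+1) of the measured B-cell, T-cell, cytotoxic and macrophage genes shown here (rows, lists from top to bottom) in the 15 nodes before treatment (columns, by dog and label), with colours ending at 8. The untyped columns show the B-cell genes and faint T-cell genes except CD3D and, in dog 031, CD3E, while the column of B-Cell dog 029 holds both sets.

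Genes of cytotoxic lymphocytes and macrophages had mostly negative differences as well, smaller in 1 set of libraries. Within the 5 libraries whose counts and FPKM ranked genes unlike, the levels differed by -1.12 for the cytotoxic and -0.91 for the macrophage list. Without dog 029 these were -0.70 and -0.49, and within the other 7 libraries they were -0.29 and -0.17. For the cytotoxic list 9 of 9 measured genes were negative, with a median of -0.74, or -0.45 without dog 029. CTSW, a cathepsin of cytotoxic cells, was at 1.04, 1.54, 1.47, 2.08 and 1.72 FPKM against 1.83 to 14.9 with a median of 2.94. Of the 5 untyped nodes 4 lay below every B-Cell node, and the difference was -0.94 ± 0.35 (limma, unadjusted p of 0.0193, adjusted p of 0.895). CD160, a receptor of natural killer and cytotoxic T cells, was at 0.799, 0.213, 0.950, 2.65 and 1.91 FPKM against 1.10 to 7.78, a difference of -0.995 ± 0.44 (limma, unadjusted p of 0.0392, adjusted p of 0.895).

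The untyped nodes were not alike in these genes. GZMK, a granzyme, was at 14.9 and 11.6 FPKM in dogs 031 and 035 and at 1.33, 1.45 and 0.671 in dogs 024, 025 and 026. In the B-Cell nodes it ran from 0 to 33.8 with a median of 4.42. The level of the cytotoxic list was 2.06 and 1.81 in dogs 031 and 035 and 0.84 to 0.94 in the other 3 untyped nodes, against 0.90 to 3.29 in the B-Cell nodes. GZMA differed by -0.06 ± 0.44 between the groups.

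The macrophage list had 8 of 9 negative differences and a median of -0.50, or -0.25 without dog 029. CSF1R, the receptor that macrophages need to survive, was at 2.90, 3.11, 1.81, 7.66 and 3.74 FPKM against 4.11 to 15.0 with a median of 5.47. The difference was -0.69 ± 0.31 (limma, unadjusted p of 0.0460, adjusted p of 0.895), and the untyped dog 031 again lay inside the B-Cell range. C1QB, a complement subunit made by macrophages, was at 2.25 to 18.2 FPKM against 5.03 to 33.0. MRC1, the mannose receptor, was at 0.790 to 1.60 FPKM against 0.261 to 28.3, where dog 029 held the highest value.

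Stromal genes were at low FPKM in most of the 12 nodes. COL3A1, a fibrillar collagen, was at 0.0890 to 0.642 FPKM in the untyped nodes and at 0.159 to 9.46 in the B-Cell nodes. CDH5, the cadherin of endothelial junctions, was at 0 to 0.916 FPKM against 0.208 to 8.71. Dog 029 held the highest value of both, and without it the stromal list's median went from -0.70 to -0.27. PECAM1, an adhesion molecule of endothelium and blood cells, was at 16.8, 20.3, 5.54, 5.29 and 82.7 FPKM in the untyped nodes. Its value in dog 035 was above those of the B-Cell nodes, which ended at 57.2.

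**Figure D3:**
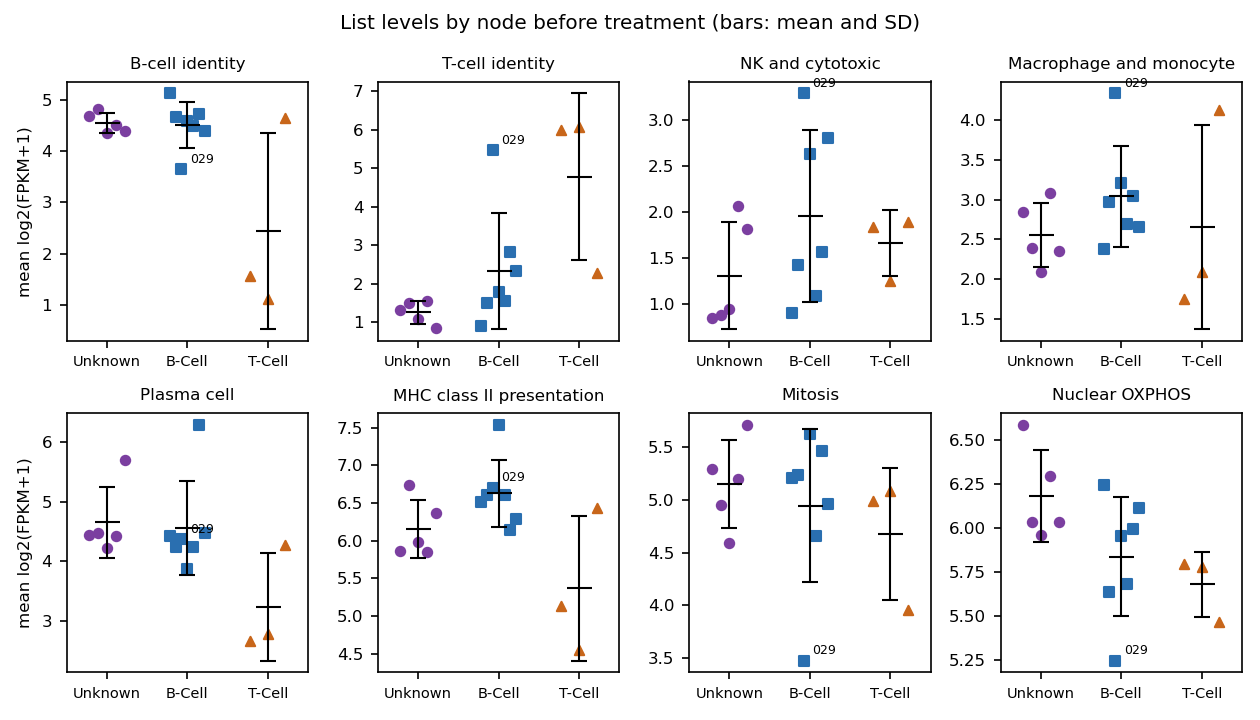
Level of 8 gene lists, as mean log2(FPKM+1) over the measured members, in each node before treatment, by immunophenotype label, with bars for mean and SD. The untyped and B-Cell groups overlap in all 8 lists, and dog 029 lies at the edge of the B-Cell group for T-cell genes at 5.47 and mitosis genes at 3.48.

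Genes of plasma cell differentiation set apart single dogs, not the groups. PRDM1, which ends the B-cell programme in plasma cells, was at 16.5 FPKM in untyped dog 035 and at 0.446 to 1.41 in the other 4 untyped nodes. IRF4, a factor of activated B cells and plasma cells, was at 56.1 FPKM in dog 035 and at 7.20 to 11.7 in the others. XBP1, the secretory pathway regulator, was at 83.2 FPKM in dog 035 and at 23.5 to 54.3 in the others.

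Dog 034, labelled B-Cell, held 13.4 FPKM of PRDM1, 36.9 of IRF4 and 324 of XBP1. The level of the plasma cell list was 5.69 in dog 035 and 6.29 in dog 034, and 3.87 to 4.47 in the other 10 nodes. The B-cell list stood at 4.39 and 4.72 in these nodes, inside the range of the rest. The differences between groups were -0.24 ± 0.70 for PRDM1, -0.01 ± 0.49 for IRF4 and -0.48 ± 0.54 for XBP1, and the list had 5 positive and 4 negative differences. SEC11C, a subunit of the signal peptidase, was at 213 to 482 FPKM against 135.8 to 427, a difference of 0.41 ± 0.28.

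Genes of germinal centre cells and of NF-kB signalling mostly had negative differences. GCSAM, a signalling adaptor of germinal centre B cells, was at 0.249, 0.555, 0.743, 0.184 and 0.174 FPKM against 0.450 to 9.08 with a median of 1.13. The difference was -1.15 ± 0.44 and -1.01 without dog 029 (limma, unadjusted p of 0.0224, adjusted p of 0.895), with 3 of 4 measured genes of the list negative. GCSAM was also at 5.23 FPKM in T-Cell dog 028, so it did not mark B-cell nodes alone. It passed the filter on mean FPKM only through the B-Cell nodes. RELB, a subunit of NF-kB, was at 2.93, 5.53, 4.58, 8.76 and 4.43 FPKM against 5.20 to 13 with a median of 7.35. It differed by -0.53 ± 0.23 (limma, unadjusted p of 0.0403, adjusted p of 0.895). The NF-kB list had 9 of 10 negative differences with a median of -0.16, and 7 of 10 with a median of -0.08 without dog 029.

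MHC class II genes, by which B cells and macrophages present antigen to helper T cells, had negative differences in 6 of 6 measured genes. The median was -0.51, and -0.49 without dog 029, where again 6 of 6 were negative. In this list the outlying B-Cell node was dog 030, with a level of 7.54, where dog 029 was at 6.70. The difference was not computed without dog 030, so its dependence on that dog was not tested. Apart from dog 030, the B-Cell nodes had levels of 6.14 to 6.70, and the untyped nodes had 5.85 to 6.74. DLA-DRA, a chain of the class II molecule, was at 1274, 2871, 1592, 798 and 1737 FPKM against 1506 to 3708 with a median of 1916. Dogs 024 and 031 lay below all B-Cell nodes and dog 025 near the top of them, and the difference was -0.49 ± 0.32.

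DLA-DOA, part of the molecule that holds back peptide loading, was at 11, 25.3, 18.2, 14.4 and 14.4 FPKM against 14.9 to 29.7 with a median of 26.2. The difference was -0.50 ± 0.22 (limma, unadjusted p of 0.0402, adjusted p of 0.895). CIITA, the master activator of class II genes, was at 5.17, 12.1, 6.07, 3.76 and 7.70 FPKM against 6.31 to 19.1, a difference of -0.57 ± 0.30. The level of the list differed by -0.83 within the 5 libraries with unlike counts and by -0.20 within the other 7. T-Cell dogs 028 and 036 were at 405 and 190 FPKM of DLA-DRA, below the untyped nodes. The level of the class II list in T-Cell dog 038 was 6.43, inside the 6.14 to 7.54 of the B-Cell nodes.

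Genes of the respiratory chain had positive differences throughout. Of the nuclear list 18 of 18 measured genes were positive, with a median of 0.35, and all 18 stayed positive at a median of 0.24 without dog 029. COX5A, a subunit of cytochrome c oxidase, was at 46.8, 22.7, 25.4, 43.3 and 25.2 FPKM against 15.1 to 29.5 with a median of 18.9. Dogs 024 and 031 lay above all B-Cell nodes, and the difference was 0.66 ± 0.23 (limma, unadjusted p of 0.0132, adjusted p of 0.895). Of the 18 genes 1 was at an unadjusted p under 0.05 in this direction, where 1.32% of all genes were. ATP5F1C, a subunit of ATP synthase, was at 94.4 to 134 FPKM against 46 to 105, a difference of 0.41 ± 0.20.

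The mitochondrially encoded genes of the same chain were positive in 8 of 8, with a median of 0.38, or 0.26 without dog 029. MT-CYB, the cytochrome b of the chain, was at 2609, 1702, 1290, 3035 and 3290 FPKM against 988 to 2707 with a median of 1662. Its difference was 0.44 ± 0.31, and the groups overlapped. For the nuclear list the difference in level was 0.70 within the 5 libraries with unlike counts, or 0.51 without dog 029, and 0.09 within the other 7. For the encoded list it was 0.58 within the 5 libraries, or 0.24 without dog 029, and 0.22 within the other 7.

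Proliferation genes depended on dog 029. The mitosis list had 31 of 34 positive differences with a median of 0.21, but 24 of 34 negative ones with a median of -0.04 once dog 029 was left out. TOP2A, the topoisomerase that doxorubicin poisons, was at 232, 194.4, 157, 239 and 330 FPKM in the untyped nodes. In the B-Cell nodes it was at 38.9 in dog 029 and reached 414, with a median of 222. MKI67, a protein of dividing cells, was at 97.1, 58.8, 55.1, 118 and 212 FPKM against 45.6 to 155 with a median of 135.9. The differences were 0.26 ± 0.46 for TOP2A and -0.17 ± 0.38 for MKI67. Within the libraries with unlike counts TOP2A differed by 0.76, or -0.26 without dog 029. Within the other libraries TOP2A differed by -0.09. The DNA replication list went from a median of 0.07 to -0.11 without dog 029.

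Proteasome and glycolysis genes showed smaller positive medians, and their levels differed little outside the libraries with unlike counts. Within those libraries the difference in level was 0.44 for the proteasome list and 0.37 for the list of MYC and glycolysis genes. Without dog 029 these were 0.22 and 0.19. Within the other libraries they were -0.005 and -0.016. PSMA6, a subunit of the proteasome core, was at 190, 223, 168, 186 and 270 FPKM against 103 to 190 with a median of 157. It differed by 0.41 ± 0.18 (limma, unadjusted p of 0.0390, adjusted p of 0.895), while the list's median was 0.18, or 0.06 without dog 029. GPI, an enzyme early in glycolysis, was at 43.6, 32.2, 30.4, 32.4 and 49.7 FPKM against 18.7 to 38.0, a difference of 0.44 ± 0.19 (limma, unadjusted p of 0.0413, adjusted p of 0.895). MYC, a transcription factor that drives cell growth, was at 20.5, 16.8, 14.9, 22.5 and 8.76 FPKM against 13.1 to 36.5, a difference of -0.42 ± 0.28. CANX, an endoplasmic reticulum chaperone of MHC class I molecules, was at 272 to 339 FPKM against 160 to 299. Its difference was 0.39 ± 0.17 (limma, unadjusted p of 0.0347, adjusted p of 0.895). Within the libraries with unlike counts PSMA6, GPI and CANX differed by 0.76, 0.88 and 0.74. Within the other libraries they differed by 0.16, 0.14 and 0.14.

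A list of the glucocorticoid receptor, to which prednisone binds, and of its response genes had mostly negative differences. TXNIP, an inhibitor of thioredoxin that glucocorticoids induce, was at 22.2, 15.6, 28.8, 38.4 and 48.1 FPKM against 22.2 to 140 with a median of 52.9. It differed by -0.94 ± 0.38, and by -0.72 without dog 029 (limma, unadjusted p of 0.0286, adjusted p of 0.895). FKBP5, a chaperone induced by the receptor, was at 144, 77.4, 121, 158 and 132 FPKM against 71 to 239, a difference of 0.13 ± 0.27. NR3C1, the receptor itself, differed by -0.35 ± 0.33. TSC22D3, another member, differed by -0.54 within the libraries with unlike counts, or 0.06 without dog 029. Within the other libraries TSC22D3 differed by 0.16. Of the measured genes 6 of 7 were negative, with a median of -0.35, and FKBP5 was positive. The 7 included NR3C1 and IL7R, a gene also in the T-cell list. Without dog 029, whose list level of 4.94 lay above the 3.57 of the next B-Cell node, 5 of 7 were negative with a median of -0.17.

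Interferon genes varied between nodes and between the sets of libraries. CXCL10, a chemokine induced by interferon, was at 62.8 FPKM in untyped dog 031 and at 1.37 to 6.91 in the other 4, against 1.79 to 25.9 in the B-Cell nodes. DDX58, which encodes the RNA sensor RIG-I, was at 5.17, 50.2, 13.4, 76.4 and 21.7 FPKM against 17.9 to 79.8. Of the 30 genes of the list 3 were measured, and their median was -0.78, or -0.06 without dog 029. Within the libraries with unlike counts the level of the list differed by -1.98, or -1.40 without dog 029. Within the other libraries it differed by 0.35. IL2RA, a receptor chain for interleukin 2, was at 3.91, 6.76, 26.6, 12.5 and 4.95 FPKM against 7.52 to 36.7, a difference of -0.88 ± 0.43.

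**Figure D4:**
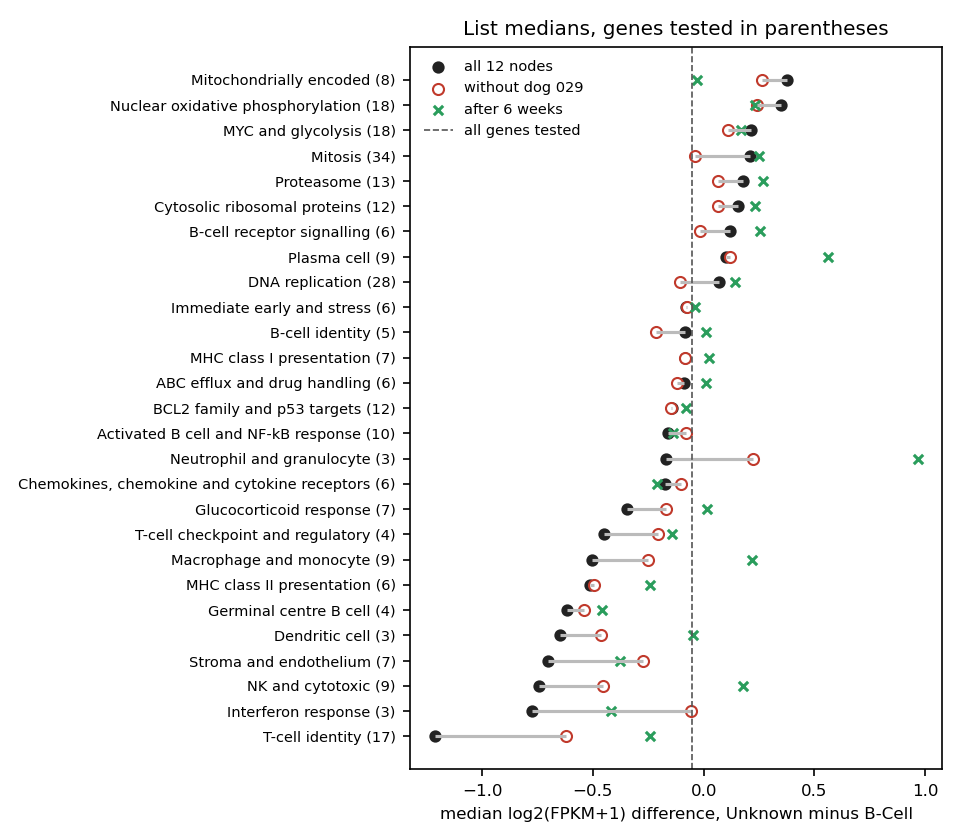
Median over the measured members of each list of the log2(FPKM+1) difference, untyped minus B-Cell (x axis), with all 12 nodes, without dog 029, and after 6 weeks of treatment. The T-cell list moves from -1.21 to -0.62 without dog 029 and the mitosis list from 0.21 to -0.04, while the MHC class II list stays at -0.51 and -0.49.

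Across the transcriptome 1 gene passed the test, which is 0.00752% of the 13293 genes. This gene, ENSCAFG00000011332, had no symbol in the tables used here. It was at 0.606, 0.831, 1.05, 0.643 and 1.24 FPKM in untyped dogs 024, 025, 026, 031 and 035, and at 2.69 to 7.28 in the B-Cell nodes with a median of 5.39. Every untyped node lay below every B-Cell node, as held for 26 genes or 0.196% of those tested. It was lower in the untyped nodes by limma, with a difference of -1.69 ± 0.22 and an adjusted p of 0.0422. The gene passed the filter on mean FPKM only through the B-Cell nodes, and with no filter limma gave an adjusted p of 0.135.

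The call depended on single dogs. It held without dog 030 or dog 035 and was lost without any one of the other 10 dogs. Over these 12 fits adjusted p ran from 0.0104 to 0.235 and the difference from -1.81 to -1.61. Within the 5 libraries with unlike counts the difference was -1.43 and within the other 7 it was -1.88. With these sets as a term it was -1.70 and adjusted p was 0.0598. T-Cell dogs 028, 036 and 038 were at 0.542, 0 and 1.70 FPKM, on the side of the untyped nodes.

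A second gene without a symbol, ENSCAFG00000017130, was listed at 0 FPKM in all 5 untyped nodes. In the B-Cell nodes it was at 0.532 to 12 FPKM with a median of 2.96, and in T-Cell dogs 028 and 036 it was also listed at 0. Its adjusted p was 0.895 by limma, and it passed the filter on mean FPKM through the B-Cell nodes alone. At 6 weeks 3 of 5 untyped nodes were at 2.36 to 2.81 FPKM and 4 of 7 B-Cell nodes were listed at 0.

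At an unadjusted p under 0.05, 176 genes were higher and 362 lower in the untyped nodes, or 1.32% and 2.72% of those tested. Without dog 029, limma called 0 of 12974 genes, with 126 higher and 258 lower at the unadjusted threshold, or 0.971% and 1.99%. Without that dog 10 genes, or 0.0771%, had all untyped nodes above the B-Cell nodes, and 27, or 0.208%, had them below. The spread between dogs was similar in both groups. The median SD per gene was 0.36 over the 5 untyped nodes and 0.42 over the 7 B-Cell nodes, or 0.35 without dog 029.

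Among genes with a symbol, the 10 lowest and the 10 highest in moderated t are given as values, apart from any not reported here, since all had an adjusted p of 0.895. CYP1B1, a cytochrome P450 enzyme, was at 0.639, 1.03, 0.991, 1.72 and 1.04 FPKM against 2.12 to 11.4 with a median of 3.94. The groups did not overlap, and the difference was -1.45 ± 0.31. PKIB, an inhibitor of protein kinase A, was at 0.927, 0.542, 0.483, 1.73 and 0.316 FPKM against 1.55 to 45.4 with a median of 12.5. Its difference of -2.87 ± 0.61 was the largest in size of the 20, and only dog 031 reached into the B-Cell range. PKIB passed the filter on mean FPKM only through the B-Cell nodes.

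PTPN4, a tyrosine phosphatase, was at 10.1, 7.21, 9.77, 11.2 and 7.79 FPKM against 11.3 to 15.7, with no overlap and a difference of -0.54 ± 0.14. IL7, a survival cytokine of lymphocytes, was at 2.13, 6.27, 2.72, 4.44 and 1.43 FPKM against 4.75 to 10.7 with a median of 6.85. Dog 025 overlapped with the B-Cell nodes, and the difference was -0.99 ± 0.26. GIMAP4, a GTPase of lymphocytes, was at 6.08, 19.998, 15.2, 17.6 and 6.55 FPKM against 20.9 to 82.0, with no overlap and a difference of -1.30 ± 0.37. Its highest value was that of dog 029, and without that node the difference was -1.07. The other 5 of the lowest genes were SASH1, ZNF180, TTC39B, ZNF252 and TRIB1, with differences from -1.13 to -0.55.

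On the other side stood POLR3E, a subunit of RNA polymerase III, at 32.4, 24.9, 23.4, 22.6 and 28.1 FPKM against 8.99 to 22.3 with a median of 14.7. The groups did not overlap, and the difference was 0.79 ± 0.20. SEC61G, a subunit of the channel that takes proteins into the endoplasmic reticulum, was at 108, 94.2, 118, 80.1 and 76.5 FPKM against 38.1 to 86.4, a difference of 0.69 ± 0.22. IDH3A, an enzyme of the citric acid cycle, was at 47.6 to 78.2 FPKM against 22.1 to 61.4, a difference of 0.67 ± 0.24. SERPINB5, ANKRD13D, COX5A, MCOLN2, C16H4orf47 and BPHL were also among them, with differences from 0.66 to 1.15.

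**Figure D5:**
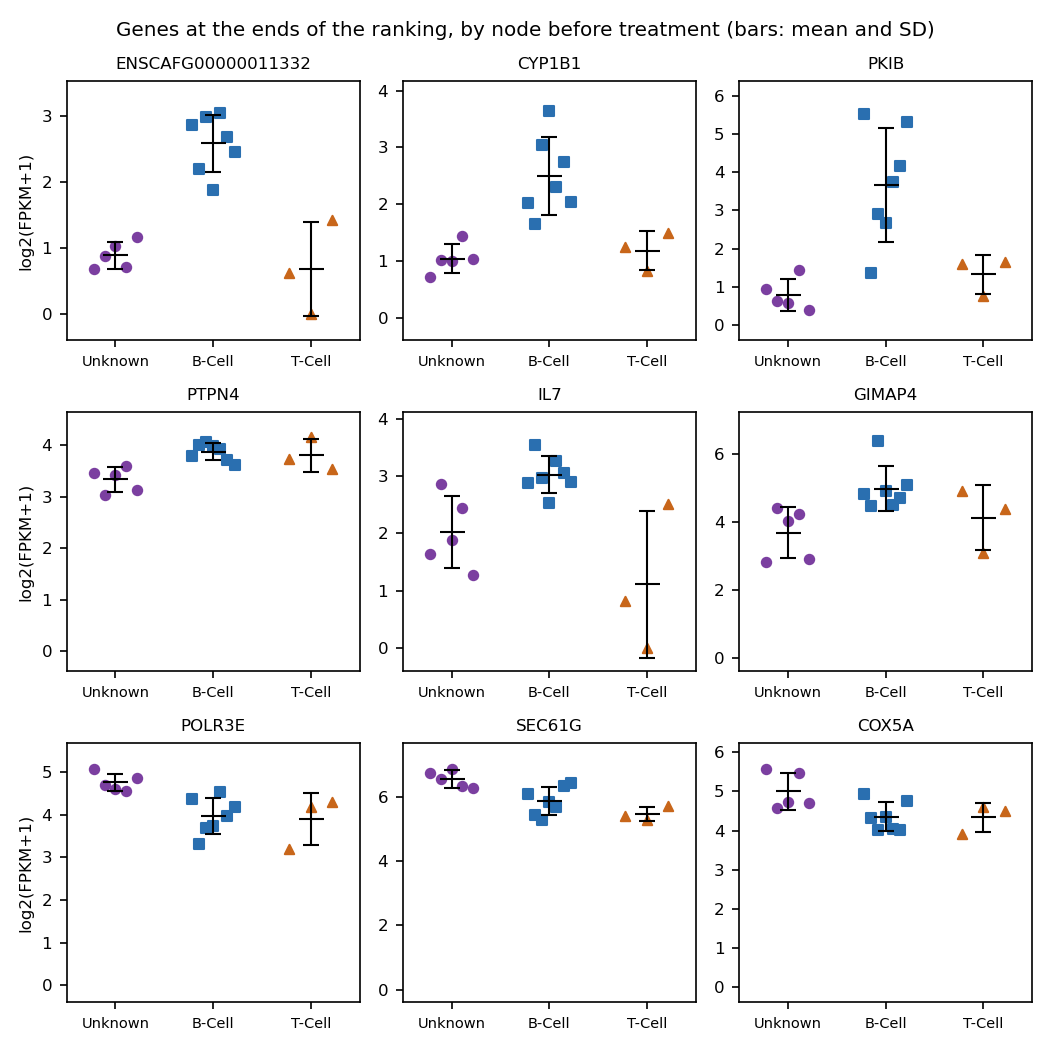
Log2(FPKM+1) of 9 genes from the ends of the ranking in each node before treatment, by immunophenotype label, with bars for mean and SD. All untyped nodes lie below all B-Cell nodes for ENSCAFG00000011332, CYP1B1, PTPN4 and GIMAP4 and above them for POLR3E, while SEC61G, IL7, PKIB and COX5A overlap.

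All 20 ranked genes kept the sign of their difference without dog 029. They had been picked as extremes from these same nodes, and leaving out that dog moved none by more than 0.234. The smallest differences were -0.54 and 0.66, so the kept signs followed from the choice and are no separate check. Genes whose groups did not overlap numbered 8 above and 26 below, or 0.0602% and 0.196% of those tested. Of those with a symbol, MTIF2 was the other gene above, and OARD1 and ZSCAN18 were the others below, named after their values were seen.

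After 6 weeks of CHOP 5 untyped and 7 B-Cell libraries were compared again, with the same dog numbers except that the untyped library 031 had no counterpart of that number and one was numbered 032. By limma 0 of 15115 genes passed, with 121 higher and 178 lower at an unadjusted p under 0.05, or 0.801% and 1.18%. The groups did not overlap for 3 genes above and 3 below, or 0.0198% each way. ENSCAFG00000011332 differed by -0.91 (unadjusted p of 0.0788). SEC61G differed by 0.88 and IL7 by -0.92 (limma, unadjusted p of 0.00642 and 0.0214, adjusted p of 0.9997 for both). The 20 ranked genes all had the same sign as before treatment, in libraries that mostly came from the same dogs.

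T-cell levels at 6 weeks overlapped between the groups. The untyped nodes were at 1.36 in dog 024, 5.07 in dog 025, 2.24 in dog 026, 2.50 in the untyped library numbered 032 and 2.03 in dog 035, against 1.08 to 5.73 in the B-Cell nodes with a median of 1.78. CD3E in dog 025 was at 168 FPKM, where it had been at 6.27 before treatment. PAX5 in that dog was at 9.14 FPKM, against 38.5 before. The T-cell list had 12 of 17 negative differences at 6 weeks with a median of -0.24. The macrophage list had a median of 0.22 and the cytotoxic list of 0.18, so these medians had the opposite sign to those before treatment.

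Of the other lists, MHC class II was negative in 6 of 6 genes at 6 weeks with a median of -0.24, and nuclear oxidative phosphorylation had a median of 0.23. The mitochondrially encoded list had a median of -0.03. The change over treatment was compared between 4 untyped and 7 B-Cell dogs whose library numbers matched. By limma 0 of 14032 genes passed, with 221 higher and 50 lower at an unadjusted p under 0.05, or 1.57% and 0.356%. The difference in change, untyped minus B-Cell, was 1.58 for CD3E, 2.31 for PKIB and 1.34 for GIMAP4 on the log2 scale, and none of them passed. PKIB and GIMAP4 had been picked for low values in these same untyped nodes before treatment. Their positive values could follow from that choice and are no separate check. CD3E rose in all 4 untyped dogs, from 6.27 to 168 FPKM in the dog with the largest rise. The untyped node highest in CD3E before treatment, that of dog 031, was not among these dogs. The untyped library left without a match after treatment, numbered 032, held 14.2 FPKM of CD3E. If both came from 1 dog, CD3E fell in that dog, and the value of 1.58 leaves this out.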

How the data were processed

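RNA of fine needle aspirates was sequenced as 75-base single reads. The authors aligned reads to CanFam3.1 with HISAT2 2.1.0 and assembled and quantified transcripts with StringTie 1.3.3, per the labels and the study's methods. FPKM per gene and read counts per gene were deposited by the authors for 32704 gene IDs, with no log taken. Symbols came from the gene tables of the study, which named 5086 IDs, so genes outside those tables carry no name here. Members and gene lists were chosen with earlier results of these data known.

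Genes with a mean FPKM above 1 over the 12 libraries were tested with limma 3.58.1 in R 4.3.3 on log2(FPKM+1), with a mean-dependent prior variance and Benjamini-Hochberg adjusted p under 0.05. Of the 13293 genes tested, 3776 had a symbol. The fit was checked on simulated data. PAX5 and CD3E were also tested by an exact two-sided permutation over 792 choices of libraries. List levels and list counts were not tested. Gene counts were not used beyond totals, since their gene order differed from that of the FPKM in 5 libraries. Change was tested on differences per dog between 4 untyped and 7 B-Cell dogs. The pair numbered 031 before treatment and 032 after it was left out.

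Genes named were the markers CD79A, PAX5 and CD3E, genes past the threshold, the 10 lowest and 10 highest in moderated t among genes with a symbol, and in each list the first 3 measured members and the 2 with the smallest p. A few list members were added after their values were seen. Some genes that this rule names are not reported here. Alternatives were pseudocounts, filters, quantile normalization, prior and weights, the T-Cell libraries added as a group and leaving out each library. Leaving out dog 029 for lists and the sets of libraries by count order were chosen after the data were examined. Python 3.11.15, pandas 2.3.3, SciPy 1.17.1 and Matplotlib 3.10.9 were used for lists and plots. No sequence was printed, since none was used here.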

Additional observations from a re-analysis of the deposited data

Results flagged for a closer look

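Each group of 5 or 7 nodes was examined for a highest or lowest value far from the others, over 220 groups of values. The rule is meant to flag about 1 in 20 groups of independent, normally distributed values. Many of the groups here were FPKM without a log, and all shared the same nodes, so that rate does not apply. In all 29 were found, 20 of them in B-Cell dog 029, and their number was not tested against chance. Their causes were not tested.

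In dog 029 the levels of the T-cell list at 5.47, the macrophage list at 4.34, the stromal list at 4.05, the NF-kB list at 4.75 and the glucocorticoid list at 4.94 were the highest of 7. The level of the DNA replication list, at 3.60, was the lowest. Among T-cell and cytotoxic genes of that dog, CD5 at 36.2 FPKM, ZAP70 at 45.2, IL7R at 131.2, CTSW at 14.9 and GIMAP4 at 82.0 were the highest of 7. So were MRC1 at 28.3 FPKM, AIF1 at 16.1, COL3A1 at 9.46, CDH5 at 8.71, IDO1 at 67.3 and TSC22D3 at 18.7. BTK at 41.5 FPKM, TOP2A at 38.9 and ATP5F1C at 46 were the lowest of 7.

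In untyped dog 035 the level of the plasma cell list at 5.69, PRDM1 at 16.5 FPKM and IRF4 at 56.1 FPKM were the highest of 5. In B-Cell dog 034 the plasma cell list at 6.29, the erythroid list at 4.27, which rested on AHSP alone, and XBP1 at 324 FPKM were the highest of 7. In B-Cell dog 030 the MHC class II list at 7.54 and RFX5, an activator of class II genes, at 70.1 FPKM were the highest, and CD3D at 7.21 FPKM was the lowest.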

How the results depend on the processing

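Before treatment 1 gene passed, and 2 passed with a pseudocount of 0.1, ENSCAFG00000011332 and ENSCAFG00000017130, which is listed at 0 in every untyped node. The number was 0 with no filter on low values, with a mean FPKM above 5, which leaves the first gene untested, with quantile normalization, with the T-Cell nodes added as a group, and with the sets of libraries by count order as a term. Constant prior variance and array weights each gave 1 gene. Leaving out each library gave 0 to 2 genes and 340 to 736 at an unadjusted p under 0.05. The cause was not tested. At 6 weeks and for the change, every alternative run gave 0 genes. No paired analysis was possible because the groups hold different dogs. For the change, the dog was the block, and without a replicate block the interaction called 0 genes. PAX5 ran from -0.40 to -0.09 and CD3E from -1.47 to -0.07 when each library was left out, with exact p of 0.188 to 0.676 and 0.218 to 0.931 over all alternatives. Of the 29 differences in list level, 25 kept their sign without dog 029, 25 with the median over members, 28 with quantile normalization and 29 with a pseudocount of 0.1. That of the T-cell list went from -1.08 to -0.55 without dog 029, and that of the germinal centre list from -0.59 to -0.95 with a pseudocount of 0.1. Symbols cover 3776 of the 13293 genes, so lists are described by part of their members.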

Other observations

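Further gene lists had medians between untyped and B-Cell nodes before treatment that are given here as values, with the level ranges of both groups overlapping. Dendritic cell genes were negative in 3 of 3 measured genes, with a median of -0.65, or -0.46 without dog 029. Genes of the BCL2 family and p53 targets were negative in 9 of 12, with a median of -0.14 against -0.15 without dog 029. RB1, the retinoblastoma tumour suppressor, differed by -0.37 ± 0.18 and did not pass limma's test (adjusted p of 0.895).

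Cytosolic ribosomal protein genes were positive in 9 of 12, with a median of 0.16, or 0.07 without dog 029. B-cell receptor signalling genes had a median of 0.12, or -0.01 without dog 029, and MHC class I genes had a median of -0.08 in both. Genes of drug efflux and drug handling had a median of -0.09. ABCB1, the efflux pump that carries doxorubicin and vincristine, was at 0.452 to 1.298 FPKM in the untyped nodes and at 0.0960 to 7.28 in the B-Cell nodes, where dog 029 was highest, a difference of -0.43 ± 0.43.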
